A study of Rattus norvegicus with 8 samples.

Results

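Globin and erythroid transcripts were followed in the liver of male Zucker diabetic fatty rats treated with a long-acting testosterone ester, testosterone undecanoate (TU). The 5 genes are the beta-like globins Hbb-b1, Hbb and Hbe2, the heme enzyme gene Alas2 and the red cell anion exchanger gene Slc4a1. They were chosen by symbol, with the probes found through the accession that the array design gives each probe, and the choice rested on the measured response of lean rats, in which Hbb-b1 and Hbe2 had passed the test and erythroid genes stood high. The rule found 5 of 13458 named genes, with 6 of 41012 probes, and 5 of the 6 were among the 26866 probes bright enough to be tested. Slc4a1 has a pair of probes and the other 4 genes have 1 each.

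Each of 8 dual-colour Agilent rat arrays held liver RNA of TU rats in Cy5 and of vehicle rats in Cy3, 4 arrays of obese (fa/fa) rats and 4 of lean (fa/+) rats, all aged 12 weeks. TU at 20 mg/kg or vehicle was injected under the skin for 4 weeks, every 3 days in the first 2 weeks and weekly in the last 2. All groups thus share the Zucker diabetic fatty background, the obese rats carrying 2 copies of the leptin receptor allele fa and the lean rats 1. Each array is labelled as a biological replicate, and no label says how many animals gave the RNA, so p-values measure the spread between these samples. TU was always in Cy5, so a dye effect and a TU effect cannot be told apart. All obese arrays lay on 1 slide and all lean arrays on another, so slide and genotype cannot be told apart in any comparison between genotypes.

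Hemoglobin joins alpha-like and beta-like globin chains with heme. In erythroid cells the globin genes, the erythroid heme enzyme Alas2 and membrane proteins such as the Slc4a1 product (band 3) are switched on together under factors such as GATA1 and KLF1, and young red cells still hold much of that RNA. The liver makes red cells in the fetus, whereas in the adult it is chiefly perfused by blood and clears hemoglobin, and androgens are known to raise red cell production. In bulk liver RNA, fewer cells of a type and less RNA per cell cannot be told apart.

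In the RefSeq annotation the rat beta-like globin genes lie beside each other on chromosome 1, in the order Hbb-bs, Hbb-b1, Hbbl1, Hbb-b2, Hbb, the pseudogene Hbe1l-ps1, Hbg1, Hbe2 and Hbe1. Slc4a1 is on chromosome 10 and Alas2 on chromosome X. The RefSeq promoter table (build GRCr8) had entries for 3 of the 5 genes. The 250 bases before the start of Hbb-b1 (chr1:167643521-167643770, minus strand) and of Hbb (chr1:167663722-167663971, minus strand) are shown because these adult-type globins stood furthest apart from each other in obese rats. Capitals mark matches to the GATA letters (GATAA following A or T, and GATAG likewise), the CACCC letters (CCNCACCC, with any base as N) and CCAAT, searched on both strands.
Hbb-b1: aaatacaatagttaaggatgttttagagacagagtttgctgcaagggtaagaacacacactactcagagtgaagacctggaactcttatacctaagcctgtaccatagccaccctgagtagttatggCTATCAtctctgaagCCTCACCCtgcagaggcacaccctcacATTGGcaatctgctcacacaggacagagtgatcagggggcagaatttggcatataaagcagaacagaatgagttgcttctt
Hbb: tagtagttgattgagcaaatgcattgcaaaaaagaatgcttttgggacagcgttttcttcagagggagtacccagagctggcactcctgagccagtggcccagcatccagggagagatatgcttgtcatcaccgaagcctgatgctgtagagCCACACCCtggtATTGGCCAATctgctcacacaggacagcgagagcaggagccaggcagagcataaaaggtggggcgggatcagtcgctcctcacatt

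The Hbb-b1 window held TGATAG on the opposite strand at 123 to 118 bases before the start, CCTCACCC at 108 to 101 and CCAAT on the opposite strand at 81 to 77. The Hbb window held CCACACCC at 98 to 91 and CCAAT on both strands, at 86 to 82 and 81 to 77, and none of the GATA letters searched. No match overlapped another. Of 33469 RefSeq promoter windows of this length, 27.0% held a GATA match, 13.6% a CACCC match, 34.0% a CCAAT match and 0.869% all 3 kinds. The Hbb-b1 window was 60.9% identical to that of Hbb, against 97.2% to Hbb-b2, 95.7% to Hbbl1 and 93.6% to Hbb-bs. With gene copies this alike upstream, RNA of the neighbouring copies may bind the Hbb-b1 probe, and its signal is given here as that of the probe. Probe sequences were not used here.

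On each array the response is the log2 ratio of TU over vehicle signal after background correction and loess normalization, where 0 is no difference and 1 is a doubling. In lean rats 4 of the 5 tested probes (Hbb-b1, Hbb, Hbe2 and Alas2) were above 0 on all 4 arrays, as were 11.8% of all probes with 8 measured arrays. In obese rats Hbe2 was the only one of the 5 above 0 on all 4 arrays, against 12.6% of all probes. By limma with Benjamini-Hochberg adjustment over all tested probes, 0 of the 5 passed an adjusted p of 0.05 in obese rats. An unadjusted limma p under 0.05 was found for 0 of the 5, against 12.8% of all tested probes. The background in obese rats was 0.0112% of probes called, namely 3 probes of Glud1, Ugt2b and Pim3. In lean rats 2 of the 5 were called higher, where 0.123% of all probes were, and since the genes were chosen on that comparison nothing is read from it. The lean call of Hbb-b1 held under 9 of 18 alternatives and that of Hbe2 under 8 of 18, and both were lost with scaled ratios, with the trend and robust model and without any 1 of the 4 lean arrays. The median log2 ratio over all tested probes was -0.0095 in obese and -0.019 in lean rats.

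**Figure D1:**
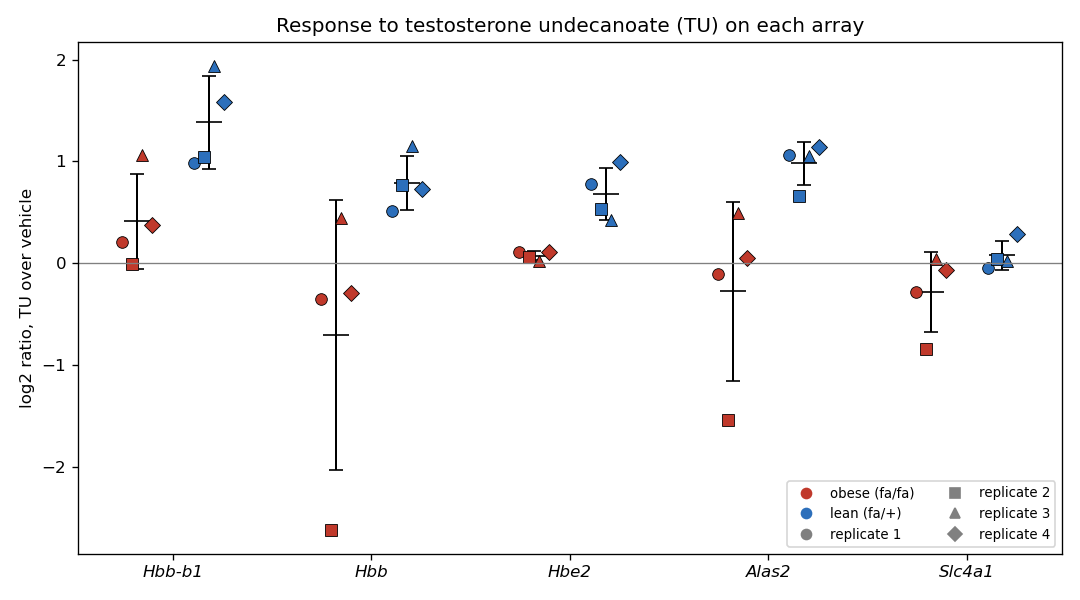
The y axis is the log2 ratio of TU over vehicle on each array for the tested probe of each gene, with obese arrays (red) left of lean arrays (blue). Bars give the mean and SD of 4 arrays, and symbols give the replicate number. Obese replicate 2 is the lowest point for Hbb-b1, at -0.01, for Hbb, at -2.62, for Alas2, at -1.54, and for Slc4a1, at -0.84.

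The adult beta-globin Hbb-b1 had log2 ratios of 0.20, -0.01, 1.07 and 0.38 in obese rats (replicates 1 to 4). In lean rats the ratios were 0.98, 1.04, 1.94 and 1.58. All lean arrays were above 0 and 3 of the 4 obese arrays were, and the groups overlapped because obese replicate 3 stood above the lower pair of lean arrays. The mean was 0.41 ± 0.46 in obese rats and 1.39 ± 0.46 in lean rats (SD, n = 4 each), or 1.33-fold and 2.61-fold. In obese rats the 95% interval of the fold ran from 0.977 to 1.81 and the limma adjusted p was 0.407. Without obese replicate 3 the obese mean was 0.19. Counted from the highest mean ratio of 26866 tested probes, Hbb-b1 ranked 290 in obese rats. It ranked 3 in lean rats, the comparison on which it was chosen, so nothing is read from that rank.

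Hbb, the other adult-type beta-globin tested, had log2 ratios of -0.35, -2.62, 0.44 and -0.29 in obese rats. Its ratios in lean rats were 0.51, 0.77, 1.15 and 0.73. Every obese array was below every lean array, and obese replicate 2 lay more than 2 log2 units below the rest. The obese mean was -0.71 ± 1.33 (SD, n = 4), with an SE of 0.40, a 95% interval of -1.62 to 0.20 and a limma adjusted p of 0.449. Without obese replicate 2 it was -0.067. The lean mean was 0.79 ± 0.26 (SD, n = 4), or 1.73-fold. In obese replicate 2 the raw vehicle signal was 18438.5, against 3924.5 to 5161.5 on the other 3 obese arrays, while its TU signal of 5793.5 was within their range of 4597.5 to 6945.5. After normalization its vehicle signal was the highest of the 4 obese arrays and its TU signal the lowest.

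Hbe2, an epsilon-type globin of the embryonic kind, gave 0.11, 0.06, 0.02 and 0.11 in obese rats. In lean rats it gave 0.78, 0.53, 0.43 and 1.00. All 8 arrays were above 0 and the groups did not overlap, with obese below lean. The obese mean was 0.075 ± 0.042 (SD, n = 4), with a 95% interval of -0.12 to 0.27 and a limma adjusted p of 0.675, and the lean mean was 0.68 ± 0.25 (SD, n = 4), or 1.61-fold. This probe was dim: its raw vehicle signal was 69 to 95 in obese and 94 to 227.5 in lean rats, yet it was well above background in both channels of all 8 arrays. Near background the fold depends on the correction, and with the scanner software's processed signals the means were 0.29 in obese and 1.11 in lean rats.

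Alas2, the erythroid form of the first enzyme of heme synthesis, had log2 ratios of -0.11, -1.54, 0.49 and 0.05 in obese rats. The lean ratios were 1.06, 0.67, 1.05 and 1.14. All obese arrays were below all lean arrays, and obese replicate 2 was again the lowest. The obese mean was -0.28 ± 0.88 (SD, n = 4), with a 95% interval of -0.89 to 0.33 and a limma adjusted p of 0.627, and without obese replicate 2 it was 0.14. The lean mean was 0.98 ± 0.21 (SD, n = 4), or 1.97-fold. As for Hbb, obese replicate 2 had the highest raw vehicle signal, 3927, where the other obese arrays had 1338 to 1956.

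Slc4a1, which encodes the chloride and bicarbonate exchanger of the red cell membrane, had log2 ratios of -0.28, -0.84, 0.04 and -0.06 in obese rats for its brighter probe. In lean rats they were -0.05, 0.04, 0.02 and 0.29. The groups overlapped, and obese replicate 2 was the lowest here too. The obese mean was -0.29 ± 0.39 (SD, n = 4), with a 95% interval of -0.58 to 0.0066 and a limma adjusted p of 0.395, and without obese replicate 2 it was -0.10. The lean mean was 0.076 ± 0.15 (SD, n = 4), and -0.15 with median centring. The second Slc4a1 probe was not well above background in the TU channel of any array and was above it in the vehicle channel of 1 obese and 1 lean array, so no fold is given.

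The difference of the responses, obese minus lean, was -1.50 ± 0.57 for Hbb, -1.26 ± 0.38 for Alas2, -0.98 ± 0.28 for Hbb-b1, -0.61 ± 0.12 for Hbe2 and -0.36 ± 0.18 for Slc4a1 (log2, SE from the fit). All 5 were negative. For Hbb, Hbe2 and Alas2 every obese array was below every lean array, as it was for 1.95% of all probes with 8 measured arrays. These differences contain the lean response on which the genes were chosen, so they describe the arrays and no test is given. Without obese replicate 2 they were -0.86 for Hbb, -0.84 for Alas2, -0.18 for Slc4a1, -0.84 for Hbb-b1 and -0.60 for Hbe2. The sizes also changed with the normalization, most of all for Hbb-b1. With each array centred on its median in place of loess the Hbb-b1 means were 0.93 in obese and 0.94 in lean rats, and with log ratios scaled between arrays they were 2.47 and 1.51. With median centring the difference was -0.69 for Hbb, -0.54 for Alas2, -0.30 for Hbe2 and -0.086 for Slc4a1, and the lean means were 0.29 for Hbb, 0.47 for Alas2 and 0.37 for Hbe2. For Hbb the scaled means were 0.57 in obese and 0.87 in lean rats, and for Alas2 0.91 and 0.96. Median centring also moved the median of all tested probes to 0.016 in obese and -0.21 in lean rats.

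**Figure D2:**
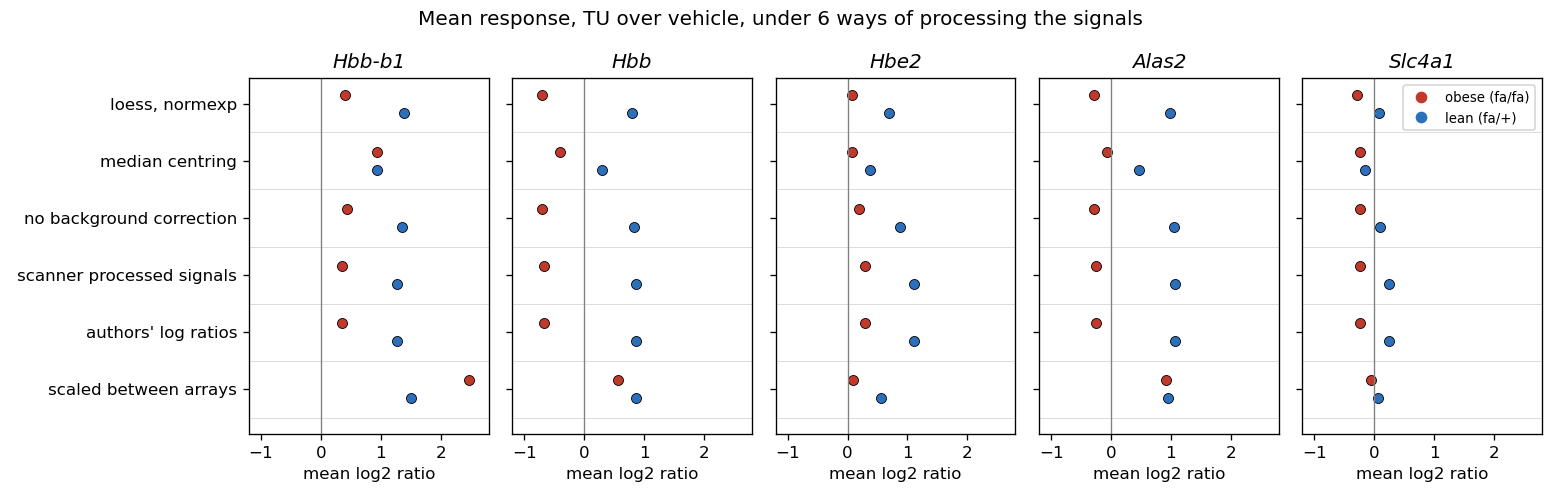
The x axis is the mean log2 ratio of TU over vehicle over 4 arrays, obese (red, upper point) and lean (blue, lower point), for each gene under 6 ways of processing the signals. For Hbb-b1 the obese and lean means coincided at 0.93 and 0.94 with median centring, and obese exceeded lean, 2.47 against 1.51, with ratios scaled between arrays.

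Signals within 1 dye compare the genotypes at the same treatment. They are normalized log2 intensities of 1 probe, and levels of different probes are not comparable. The obese and lean RNA never shared an array here, and lean channels entered the choice of genes, so values and SE are given with no test.

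Among vehicle rats Hbb-b1 stood at 15.86, 16.18, 15.58 and 16.31 in obese rats. In lean rats it stood at 14.81, 15.07, 14.26 and 14.80. Every obese value exceeded every lean value, by 1.25 ± 0.21 on average (log2, SE), or 2.38-fold. It was the only one of the 5 genes with obese above lean on all vehicle arrays, an order found in 15.4% of all probes. The difference was 0.76 with median centring and 0.79 with the processed signals, where the median of all probes was itself 0.26.

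Among TU rats the Hbb-b1 signal was 16.06, 16.17, 16.65 and 16.69 in obese rats. In lean rats it was 15.79, 16.11, 16.20 and 16.39. These ranges overlapped, and the difference was 0.27 ± 0.18 (log2, SE), turning to -0.12 with the processed signals, where the median of all probes was 0.295. With median centring it was 0.76, as it was among vehicle rats. The genotypes thus stood further apart on vehicle than on TU for this probe after loess and with the processed signals, but not with median centring.

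Hbb in vehicle rats was at 12.95, 14.68, 11.96 and 12.86 in obese rats. Lean rats had 11.82, 12.16, 10.80 and 12.16. The ranges overlapped at obese replicate 3, and the difference of 1.37 ± 0.58 fell to 0.85 without obese replicate 2. In TU rats Hbb was at 12.60, 12.05, 12.40 and 12.56 in obese rats, against 12.34, 12.93, 11.95 and 12.90 in lean rats. Here the groups were intermixed, with a difference of -0.13 ± 0.23 that turned to 0.28 with median centring and to 0.0076 without lean replicate 2.

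For Alas2 the vehicle signals were 11.47, 12.20, 10.33 and 11.22 in obese rats. In lean rats they were 10.40, 10.79, 9.41 and 10.80. The difference was 0.96 ± 0.45, with overlap at obese replicate 3, and 0.59 with median centring. In TU rats the difference was -0.30 ± 0.31, again with overlap, and 0.058 with median centring.

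Slc4a1 differed by 0.63 ± 0.17 in vehicle rats and by 0.27 ± 0.16 in TU rats, obese over lean, with overlapping groups in both. Hbe2 ran the other way. In TU rats it was at 7.77, 7.28, 7.35 and 7.48 in obese rats, against 8.51, 8.52, 7.76 and 8.86 in lean rats, a difference of -0.94 ± 0.23. The highest obese array reached just past the lowest lean array, so the groups overlapped. In vehicle rats the Hbe2 difference was -0.33 ± 0.16. After loess the genotype difference was lower on TU than on vehicle by about 1 log2 unit or more for Hbb-b1, Hbb and Alas2. This is the same arithmetic as their difference in response.

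**Figure D3:**
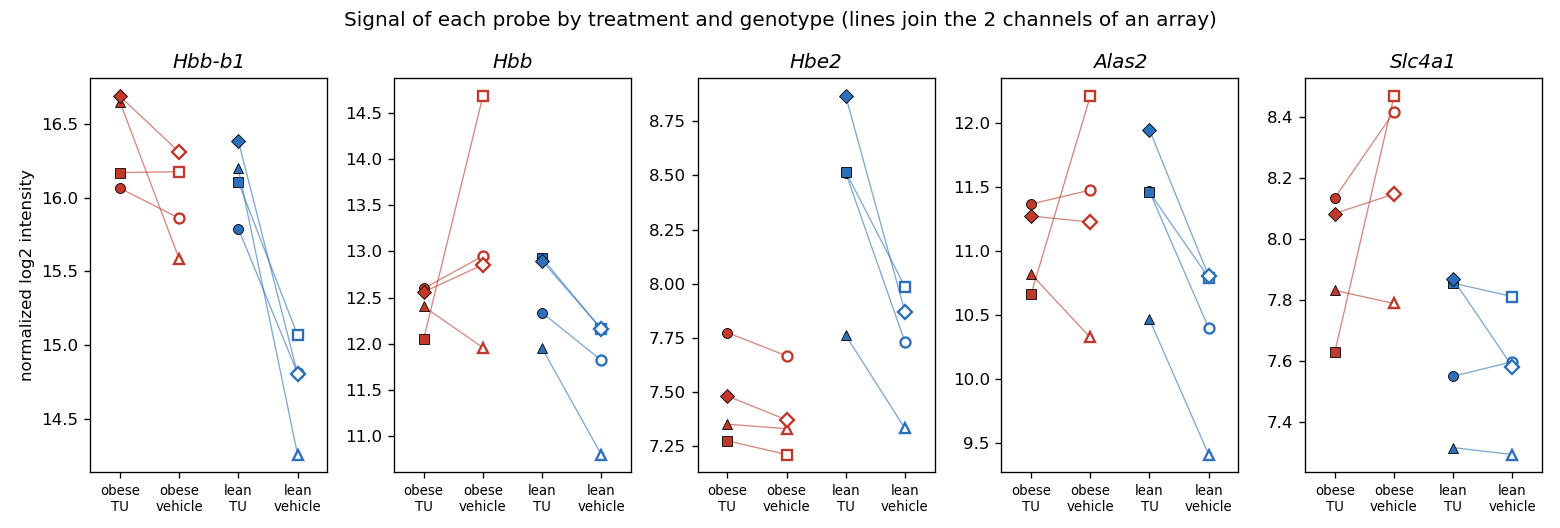
The y axis is the normalized log2 intensity of each gene's tested probe in TU (filled) and vehicle (open) rats, obese left of lean, and each line joins the 2 channels of 1 array. The scale differs between panels, and Hbb-b1 in lean vehicle rats, at 14.26 to 15.07, lay below all other Hbb-b1 signals.

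Over the 8 arrays, which share the normalization and the dye order and span the gap between genotypes on which the genes were chosen, the log2 ratios of Hbb and Alas2 had a Pearson r of 0.970, and those of Slc4a1 had 0.933 with both. Without obese replicate 2 these were 0.889 for Hbb and Alas2, 0.672 for Hbb and Slc4a1 and 0.733 for Alas2 and Slc4a1. Hbb-b1 had r of 0.833 with Hbb and 0.848 with Alas2, which rose to 0.947 and 0.879 without obese replicate 2. Hbe2 had the lowest values over the 8 arrays, 0.547 to 0.699, and 0.554 to 0.821 without that array. Among vehicle signals r was 0.971 for Hbb and Alas2 and -0.41 for Hbb-b1 and Hbe2. Among TU signals Hbb-b1 had r of 0.14 with Hbb, -0.12 with Alas2, -0.44 with Hbe2 and 0.40 with Slc4a1. For the other pairs on TU r was 0.87 for Hbb and Alas2, 0.79 for Hbe2 and Alas2 and 0.70 for Hbb and Slc4a1. It was 0.62 for Hbb and Hbe2, 0.54 for Alas2 and Slc4a1 and -0.044 for Hbe2 and Slc4a1. Obese replicate 2 also had the widest spread of log2 ratios of all probes, an SD of 0.46 against 0.11 to 0.25 on the other 7, and its part in the low ratios was not tested.

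Among 9815 other named genes, the 8 with log2 ratios most like those of Hbb-b1 over the 8 arrays were Hba-a3 (Pearson r 0.974), Ces1e (0.966), Sh2d4a (0.931), Clcn3 (0.927), Gstk1 (0.910), Nsg1 (0.903), Ttr (0.902) and Tmem97 (0.896). Hba-a3 is an alpha-like globin, Ces1e a liver carboxylesterase and Ttr the liver's thyroid hormone carrier. Only Hba-a3 had a lean mean above 1. Nsg1 was not well above background in the TU channel of any obese array. On obese replicate 1 the normalized log2 vehicle signal of Gstk1 was 7.21, against 13.26 to 14.29 on the other obese arrays. That of Ttr was 11.77 on obese replicate 1, against 17.24 to 17.65 on the other obese arrays. The part of these low signals in the ranking was not tested. The 8 ratios of Hbb-b1 span the gap between genotypes on which it was chosen, so the ranking only describes these arrays. Hba-a3, ranked first, was the one alpha-globin measured.

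Hba-a3 had log2 ratios of -0.14, -0.72, 0.97 and 0.34 in obese rats. In lean rats they were 0.83, 1.06, 1.77 and 1.57. All lean arrays were above 0, the obese arrays were split, and obese replicate 3 lay among the lean values. The means were 0.11 in obese and 1.31 in lean rats with an SE of 0.25 each, and the gene did not pass in obese rats (limma adjusted p = 0.847). With median centring the means were 0.73 in obese and 0.90 in lean rats, and over the 18 alternatives the obese mean ran from -0.17 to 2.12. Its vehicle signal was 0.81 higher in obese than in lean rats and its TU difference, obese over lean, was -0.38 (log2). The embryonic-type Hbg1, the only other one past the filter among the beta-like globins listed here, had a mean of -0.0096 in obese and 0.013 in lean rats. Hbb-bs and Hbbl1 were not in that list.

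The wider pathway was followed in 8 lists of erythroid, heme and iron genes. Of 88 genes beside the 5, 54 were measured. By limma with adjustment over all probes, 0 of 54 passed in obese rats and 0 of 54 in lean rats, with unadjusted p under 0.05 for 6 (11.1%) in obese and 16 (29.6%) in lean rats. Over all tested probes these shares were 12.8% in obese and 15.0% in lean rats. The lists were drawn up with lean results known, so nothing is read from the lean share.

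Heme synthesis had 12 measured genes, with median log2 ratios of -0.022 in obese and -0.058 in lean rats. Ppox, the last but one enzyme, was at -0.29 in obese and -0.094 in lean rats, and Fech, which inserts the iron, at -0.22 and 0.013. The obese Ppox mean was -0.054 without obese replicate 2, and Fech was at -0.86 on that array. Alas1, the form used in hepatocytes, was at 0.12 in obese and -0.20 in lean rats. After loess each measured enzyme downstream of Alas2 was within 0.2 of 0 in lean rats, where Alas2 itself was at 0.98. With median centring Alas2 was at 0.47 and Fech at -0.46 in lean rats.

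The erythroid transcription factors numbered 6 measured genes, with medians of -0.11 in obese and -0.0038 in lean rats. Gata1 was at 0.0064 in obese and 0.029 in lean rats, and Klf1 at -0.10 and 0.081. The mean furthest from 0 over 8 arrays was that of Nfe2, a globin locus factor, at -0.14 in obese and -0.56 in lean rats. Ldb1 and Lmo2 encode partners of GATA1 in a complex. Ldb1 was at -0.27 in obese and -0.029 in lean rats and Lmo2 at -0.12 and -0.0025. The obese Ldb1 mean was 0.040 without obese replicate 2, which stood at -1.22.

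Of the red cell membrane and skeleton list, 6 of 15 genes were measured, with medians of -0.035 in obese and 0.12 in lean rats. Add2, beta-adducin of the membrane skeleton, was at -0.057 in obese and 0.56 in lean rats for its brighter probe, with its other probe nearer 0 in lean rats, and Rhd, the Rh blood group protein, at -0.12 and 0.38. Gypc, glycophorin C, was at -0.21 in obese and -0.49 in lean rats, and its obese mean was -0.10 without obese replicate 2. None of the 3 passed in either genotype (limma, adjustment over all probes).

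The other erythroid list had 12 measured genes, with medians of 0.0013 in obese and 0.13 in lean rats. Ahsp, the chaperone of free alpha-globin, was at 0.0062 in obese and 0.26 in lean rats. Bnip3l, needed for clearing mitochondria from maturing red cells, was at 0.39 in obese and 0.30 in lean rats, and Tfrc, the transferrin receptor that takes up iron, at 0.084 and -0.43. The Tfrc probe was not above background in either channel of obese replicate 1 or in the TU channel of lean replicate 1, and the other Tfrc probes were nearer 0 in lean rats. Tspan33 was at -0.20 in obese and -0.099 in lean rats, and its obese mean was 0.038 without obese replicate 2.

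Among 9 measured genes of erythropoietin and iron handling, the hormone hepcidin (Hamp) was at -0.075 in obese and 0.37 in lean rats. The ferritin light chain Ftl1 was at 0.16 in obese and 0.26 in lean rats for its brightest probe, but its other 3 probes were below 0 in obese rats. Smad7, an inhibitor of the BMP signal to hepcidin, was at 0.068 in obese and -0.42 in lean rats. With median centring Hamp turned to 0.43 in obese and -0.084 in lean rats. Among 7 measured genes of hemoglobin and heme clearance, haptoglobin (Hp), which binds free hemoglobin, was at 0.36 in obese and 0.55 in lean rats, above 0 on all 8 arrays. Hmox1, which opens the heme ring, was at -0.32 in obese and 0.035 in lean rats, and Blvrb, a biliverdin reductase, at 0.029 and 0.18. The obese Hmox1 mean was -0.16 without obese replicate 2. In lean rats median centring turned Bnip3l to -0.22, Ftl1 to -0.16, Hmox1 to -0.44 and Blvrb to -0.32.

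**Figure D4:**
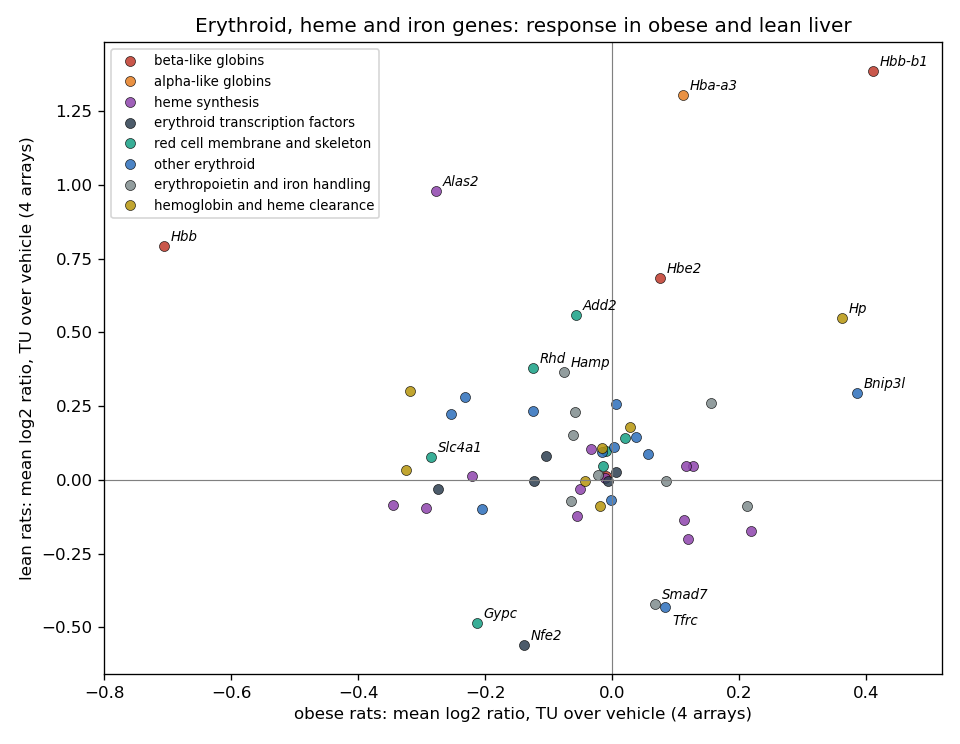
Each point is 1 measured gene of the 8 lists, the 5 chosen genes included, with the mean log2 ratio of TU over vehicle in obese rats on the x axis and in lean rats on the y axis (4 arrays each). Hbb-b1 and Hba-a3 are the points above 1 on the lean axis, and Hbb and Alas2 lie above 0 on the lean axis and below 0 on the obese axis.

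Markers of other cells give the makeup beside these values. Of the platelet list 7 of 11 genes were measured, with mean log2 ratios per array of -0.24 to 0.057 in obese and 0.12 to 0.15 in lean rats. Its mean signals were 7.49 to 7.61 in obese TU and 7.54 to 7.73 in obese vehicle rats, and 7.54 to 7.76 in lean TU and 7.40 to 7.61 in lean vehicle rats. Pf4, platelet factor 4, was at -0.20 in obese and 0.44 in lean rats and Gp1bb at -0.079 and 0.32, while Gp1ba was at 0.028 and 0.14. The obese means were -0.016 for Pf4 and 0.048 for Gp1bb without obese replicate 2. Of the 7 genes 5 were above 0 in lean rats, and Gp5 and Itgb3 were below it, at -0.096 and -0.044. With median centring Pf4 turned to -0.077 and Gp1bb to -0.069 in lean rats. After loess all 4 lean arrays were above 0 for the platelet list as they were for the 3 globins. The same held for the mean ratios of the hepatocyte list, at 0.17 to 0.47 in lean rats. The part of either list in the globin values was not tested.

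Of the neutrophil list 4 of 12 genes were measured, with mean ratios of -0.026 to 0.26 in obese and -0.094 to 0.28 in lean rats, and Elane and Camp, with 1 probe each, were not past the filter. Of the lymphocyte list 7 of 12 were measured, at -0.052 to 0.024 in obese and -0.035 to 0.011 in lean rats. The 10 Kupffer cell genes measured, of 11, were at -0.30 to -0.11 in obese and -0.32 to 0.016 in lean rats, and the 5 endothelial genes measured, of 8, at -0.22 to 0.21 and -0.16 to 0.047. All 9 hepatocyte genes were measured, Alb included, and averaged -0.42 to 0.29 in obese and 0.17 to 0.47 in lean rats. Of these 1, Ambp, was called higher in lean rats by limma, with a mean of 0.76, or 0.35 with median centring. In obese rats Ambp was at 0.66 and did not pass (limma adjusted p = 0.181). Obese replicate 2 was the lowest array for the mean ratios of the hepatocyte and platelet lists. It was also the lowest for Hbb-b1, Hbb, Alas2, Slc4a1 and Hba-a3, but not for Hbe2. Not every gene of the 2 lists followed. Ttr was at -0.11 on that array and lower, at -0.34, on obese replicate 1, and Gp1ba was at 0.046 on obese replicate 2. Both channels of Ttr on obese replicate 1 were far below those on the other obese arrays. Gp1ba was not well above background in the vehicle channel of obese replicate 2.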

How the data were processed

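Liver RNA was measured on 8 dual-colour arrays (4 obese, 4 lean). Per the file headers, the deposited spot and background intensities are median pixel values read with Agilent Feature Extraction 10.7.3.1, beside processed intensities, log10 ratios of processed red over green, and other values that flag each spot. The authors' deposited matrix holds log2 ratios, base and direction taken from the slope on the scanner's log10 ratios (3.33 to 3.38). Of 45018 spots, 1639 controls and non-uniform spots were left out. With limma 3.58.1 in R 4.3.3, median signals were corrected by normexp (offset 50), normalized by loess and, for single channels, by Aquantile, and spots of a probe were averaged. A probe was tested if at least 4 of 8 arrays had it well above background in 1 channel or both, and 2 or more arrays per genotype measured it. Accessions were matched to RefSeq symbols, and 24002 probes stayed unnamed. limma fitted a mean per genotype on 8 arrays (lmFit, eBayes), with Benjamini-Hochberg adjustment over 26866 probes. The fit was tested on simulated data. Members and lists were chosen with earlier results of these data known. Named in the text are all member probes and, per list, genes that passed in obese rats or else the 3 with the largest absolute mean ratio over 8 arrays; Alas1, Gata1, Klf1 and Ahsp were added after their values were seen, and 1 gene that the rule names is not reported here. The brightest probe stands for a listed gene. Obese and lean arrays were read with 2 versions of the array annotation. Promoters were aligned with Biopython 1.88. The number of arrays limits the precision.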

Additional observations from a re-analysis of the deposited data

Results flagged for a closer look

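In 30 groups of 4 arrays (log2 ratios and both channels of the 5 tested probes, per genotype), no array stood far enough from the others to be singled out, by Dixon's criterion at the 95% level. Obese replicate 2 of Hbb came to a log2 ratio of -2.62 without passing it.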

How the results depend on the processing

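Alternatives were normalization, background, signals, filter, probe choice, variance model, samples fitted, a replicate block and leaving out each array. Of 26866 probes, 3 were called in obese rats, 53 in lean rats, 1 for the difference of the responses, 5812 between genotypes on TU and 4275 on vehicle. In obese rats the count was 0 with median centring, ratios scaled between arrays, the trend and robust model, obese arrays alone and the replicate block (unadjusted p under 0.05 for 1440, 3501, 2851, 1743 and 3621), 23 without background correction, 209 with processed signals and 203 with the authors' log ratios; leaving out 1 array gave 0 to 2. In lean rats it was 6581 with median centring (313 higher, 6268 lower), 327 without background correction, 275 with processed signals and with the authors' log ratios, 0 with scaled ratios and with the trend and robust model (unadjusted 3657 and 3559), 313 with lean arrays alone and 23 with the replicate block; leaving out 1 array gave 1 to 1202, the highest without obese replicate 2. The difference gave 0 with median centring, no background correction, scaled ratios, trend and robust, and the replicate block (unadjusted 9253, 2613, 1997, 2147 and 1904), 2 with processed signals and with the authors' log ratios, and 0 to 3 without 1 array. Between genotypes processed signals gave 1843 on TU and 1016 on vehicle, the replicate block 1995 on vehicle, and leaving out 1 array 3834 to 8823 on TU and 1920 to 5866 on vehicle. The split moved with median centring, to 6095 higher and 1189 lower on TU (loess 3627 and 2185) and 870 and 2359 on vehicle (loess 2485 and 1790). Hbb in obese rats turned to 0.57 with scaled ratios, and Alas2 to 0.91 with scaled ratios and, without 1 array, ran from -0.53 to 0.14, the highest without obese replicate 2. None of the 5 genes was called in obese rats under any of the 18 alternatives. Their adjusted p (limma) ran from 0.181 to 0.711 for Hbb-b1, 0.255 to 0.947 for Hbb, 0.235 to 0.897 for Hbe2, 0.350 to 0.944 for Alas2 and 0.236 to 0.845 for Slc4a1. The same replicate numbers did not pair the arrays: deviations from the group means had correlations of 0.059, -0.10, 0.16 and -0.013 for numbers 1 to 4. Single channels were not run with the authors' log ratios, scaled ratios or 1 genotype alone. The cause of these changes was not tested. Dim probes (Hbe2, Slc4a1) limit the folds near background.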
